A study of Mus musculus with 4 samples.

Results

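The transcripts of 8 transcription factors were described in mouse pancreatic islets, the endocrine tissue of the pancreas: Neurog3, Insm1, Myt1, St18, Mnx1, Hnf4a, Glis3 and Prox1. They were chosen by name as factors of endocrine progenitors and of the hepatocyte nuclear factor network, and are 8 of the 23235 gene symbols in the deposited tables. Each symbol matched a single row, and each row had a valid estimate in all 4 libraries.

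Islets came from C57BL/6 mice that were wild type (WT) or carried the KR mutation, known from the study as a FoxO1 allele in which arginines stand in for the acetylated lysines, a mimic of the deacetylated transcription factor. The 4 groups were WT and KR islets, each fasted or refed, with 1 library each and no biological replicate. Per the labels, islets of 3 WT and 3 KR mice were pooled by genotype, so each library is a pool of whole islets with all their cell types. The titles give a fast of 48 h, followed by 6 h of refeeding in the refed groups, while the extraction protocol gives a fast of 24 h. Neither age nor sex of the mice is given in the sources used here.

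During pancreas development the basic helix-loop-helix factor NEUROG3 commits progenitor cells to the endocrine fate. It switches on zinc finger factors such as INSM1, MYT1 and ST18, which take part in endocrine differentiation and stay on in mature islet cells. MNX1, HNF4A, GLIS3 and PROX1 act in pancreatic progenitors and, to differing degrees, in adult endocrine cells. HNF4A is mutated in a form of monogenic diabetes.

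Levels are given as FPKM, fragments per kilobase of transcript scaled to sequencing depth, so levels of different genes can be set side by side per length. The bounds given with an FPKM are the deposited lower and upper bounds. They were taken to cover counting error only, though the program that gave them is not stated. The bounds of each gene imply a number of fragments, and over all genes these summed to 26415158 in fasted and 18103888 in refed WT islets, and to 25718949 (without Ins2, which has no valid value there) in fasted and 11079100 in refed KR islets. For the 8 genes the implied fragments ran from 132, for Neurog3 in refed KR, to 12532, for Insm1 in fasted WT. The 2 refed libraries were the shallower ones in both genotypes. Effects shared over the design were tested with limma on log2(FPKM + 1) in an additive model of genotype and feeding state over the 4 libraries. That model leaves 1 residual degree of freedom per gene, so its p-values lean on the spread of all 11953 genes whose FPKM averaged at least 1. All 8 genes were among these, and none lay below an FPKM of 6.87 in any library. The p-values measure only the spread between these pooled libraries. For a single gene, that spread is the part of its genotype difference that changes with feeding state, which the model counts as error. A difference that turns between feeding states therefore counts against passing.

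Insm1 was by far the most abundant of the 8 genes in every library. It took 65.4% of their summed FPKM fasted and 39.7% refed in WT islets, and 62.1% fasted and 36.3% refed in KR islets. Myt1 and St18 came next in each library. Myt1 stood above St18 in fasted WT, the bounds of these genes overlapped in fasted KR, and St18 stood above Myt1 in both refed libraries. The other 5 genes, Neurog3, Mnx1, Hnf4a, Glis3 and Prox1, lay between 6.87 and 11.8 in all libraries. Among those 5 the bounds of neighbours in the order of levels overlapped everywhere except between Prox1 and Hnf4a in fasted WT. Insm1 ranked 446 and 427 among the 11953 tested genes in fasted WT and KR, and 1294 and 1355 in refed WT and KR. Neurog3 ranked between 7108 and 8200.

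**Figure D1:**
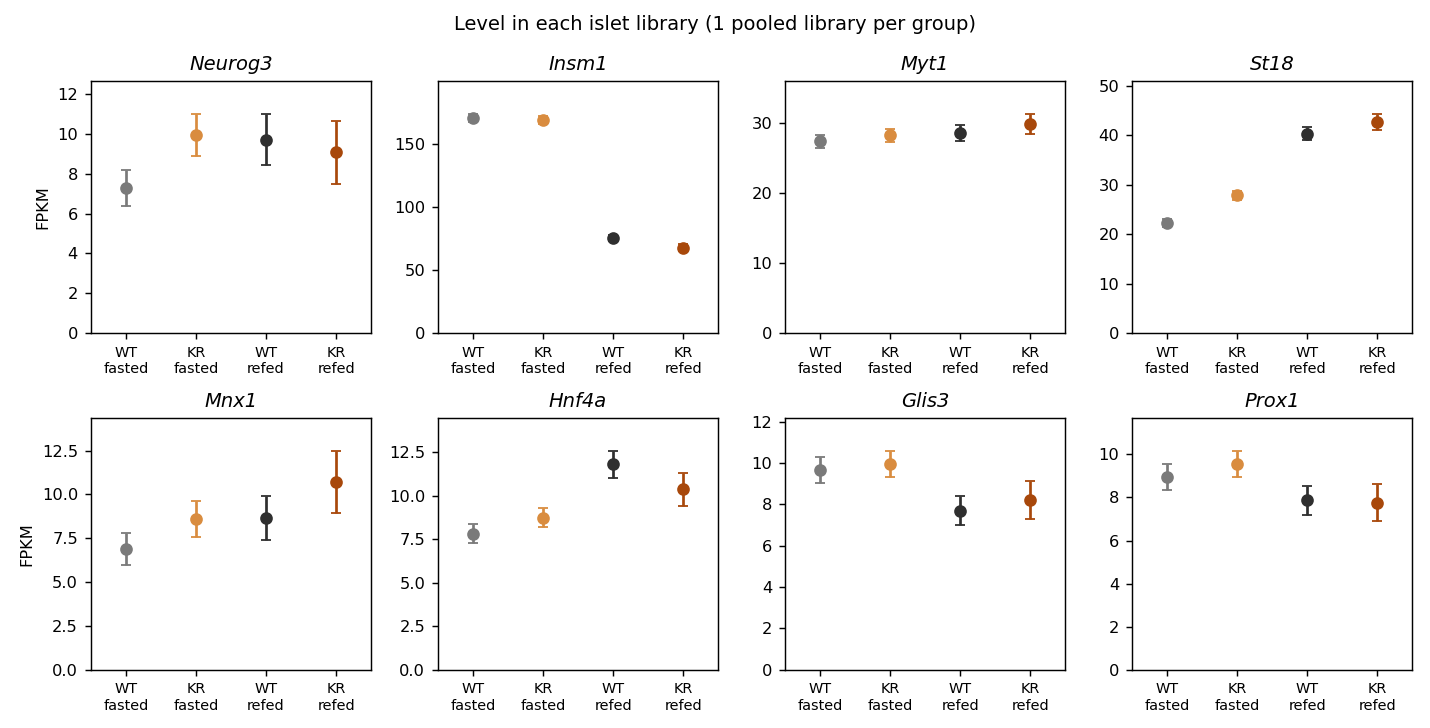
FPKM of each gene (vertical axis, starting at 0 with a different scale in each panel) in the 4 libraries; points are the deposited values and bars the deposited lower and upper bounds. Insm1 sits near 170 in the fasted and near 70 in the refed libraries, St18 rises from 22.3 and 27.9 to 40.4 and 42.7, and Myt1 stays between 27.4 and 29.8.

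Refeeding was associated with the largest differences among these genes. Insm1 was lower, and St18 higher, in the refed islets of both genotypes. Hnf4a and Mnx1 were modestly higher, and Glis3 and Prox1 modestly lower. In all, 6 of the 8 genes passed the feeding test, 3 higher and 3 lower after refeeding, against 56.9% of all tested genes, of which 27.7% were higher and 29.2% lower, so passing this test was common among genes of any kind. With no filter on low values none of the 8 passed this test, nor did any other of 23046 genes, beside 6207 at an unadjusted p under 0.05, 4 of them among the 8. Both refed libraries lay outside the range of both fasted libraries for 7 of the 8 genes, which held for 75.7% of all tested genes. In whole islets, fewer cells of a type and less RNA per cell cannot be told apart.

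Insm1 encodes a zinc finger repressor of endocrine and neuroendocrine cells and lies on chromosome 2 at 146047733 to 146050754 (mm9, as are all gene positions below). In WT islets its FPKM was 170.4 fasted (bounds 167.4 to 173.5) and 75.5 refed (73.1 to 78.0), and in KR islets 168.5 fasted (165.5 to 171.5) and 67.6 refed (64.6 to 70.6). Both fasted libraries were high and both refed ones low, with no overlap of the groups. The refed FPKM was 2.26-fold lower in WT (95% counting interval 2.18 to 2.34) and 2.49-fold lower in KR (2.38 to 2.61). The fitted change fell by 1.23 on the log2 scale, with an SE of 0.06 over 4 libraries, and passed the limma test (adjusted p = 3.98e-06). Insm1 held place 115 from the lowest of 11953 fitted feeding changes. It was the only one of the 8 genes at least 2-fold apart in a pair of libraries on the log2(FPKM + 1) scale, and it was lower in both genotypes. Between the feeding states 3.51% of tested genes were that far apart in WT (2.4% lower, 1.11% higher) and 2.33% in KR (1.75% lower, 0.577% higher). Between genotypes none of the 8 was that far apart, against 0.243% of tested genes in the fasted pair (0.134% higher, 0.109% lower) and 0.368% in the refed pair (0.167% higher, 0.201% lower).

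St18, also known as Myt3, encodes a zinc finger factor of the MYT family and lies on chromosome 1 at 6477312 to 6851021. WT islets held 22.3 FPKM fasted (bounds 21.6 to 23.1) and 40.4 refed (39.1 to 41.6), KR islets 27.9 fasted (27.0 to 28.7) and 42.7 refed (41.0 to 44.4). The refed libraries were the higher ones, and their bounds did not touch those of the fasted libraries. The refed FPKM was 1.81-fold that of fasted islets in WT (counting interval 1.72 to 1.89) and 1.53-fold in KR (1.46 to 1.61). The fitted rise was 0.71 ± 0.07 (SE, 4 libraries) on the log2 scale (limma, adjusted p = 9.39e-05), place 327 from the highest of all tested genes. Because St18 rose as Insm1 fell, the FPKM of St18 went from 13.1% and 16.5% of that of Insm1 in fasted WT and KR to 53.4% and 63.1% in refed WT and KR.

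Myt1, the other MYT family member of the 8, lies on chromosome 2 at 181498037 to 181562480. Its FPKM went from 27.4 fasted to 28.6 refed in WT islets and from 28.2 to 29.8 in KR islets. These values lay close together, and the fitted feeding change of 0.07 ± 0.06 did not pass (limma, adjusted p = 0.395). St18 thus went from 0.816 of the Myt1 level in fasted WT and 0.987 in fasted KR to 1.41 and 1.43 times that level in refed WT and KR. The third member of the family, Myt1l, went from 5.51 to 5.54 in WT islets and 5.52 to 5.06 in KR islets, with a fitted feeding change of -0.05 that did not pass.

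Neurog3 lies on chromosome 10 at 61595838 to 61597511. WT islets held 7.30 FPKM fasted (bounds 6.39 to 8.22) and 9.73 refed (8.45 to 11.01), while KR islets held 9.95 fasted (8.89 to 11.02) and 9.08 refed (7.50 to 10.7). The fasted WT library was the lowest. Its bounds overlapped those of refed KR but not those of fasted KR or refed WT, and the other 3 overlapped with each other. The fitted feeding change was 0.12 ± 0.11 (limma, adjusted p = 0.376). In the GENCODE M21 annotation, 273 of the 1674 exon bases of Neurog3, or 16.3%, are shared with a gene on the opposite strand, Fam241b, which the files list as 2010107G23Rik. That gene stood at 22.2 FPKM fasted and 22.2 refed in WT, and at 21.6 and 19.7 in KR. The preparation named in the labels is not stated to mark strand, so reads in the shared bases cannot be assigned. Since that gene had the higher FPKM in every library, the share of Neurog3 fragments that this could touch is not limited to its share of bases, and the level of Neurog3 is uncertain.

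Mnx1, a homeobox gene of beta cells and motor neurons on chromosome 5 at 29800363 to 29805010, went from 6.87 FPKM fasted to 8.67 refed in WT islets and from 8.59 to 10.7 in KR islets. Refed KR was the highest and fasted WT the lowest, with the other 2 libraries almost equal between them. The fitted rise with refeeding was 0.29 ± 0.08 on the log2 scale (limma, adjusted p = 0.0119). Glis3, a Kruppel-like zinc finger gene that activates insulin transcription, lies on chromosome 19 at 28336938 to 28754567 and went from 9.67 FPKM fasted to 7.70 refed in WT islets and from 9.97 to 8.22 in KR islets. Both refed values lay under both fasted values, and the fitted fall was -0.27 ± 0.08 (limma, adjusted p = 0.0164). Prox1, a homeobox gene of pancreatic progenitors, liver and lymphatic endothelium on chromosome 1 at 191945658 to 191994559, stood at 8.94 and 9.57 in the fasted and 7.87 and 7.76 in the refed libraries of WT and KR. Its refed values were also the lower ones, with a fitted fall of -0.22 ± 0.08 (limma, adjusted p = 0.0461). The call of Prox1 was lost after rescaling by the median of ratios (adjusted p = 0.0597) and in limma without trend (0.0537). Over 8 alternatives the adjusted p of Prox1 ran from 0.0215 to 0.224.

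**Figure D2:**
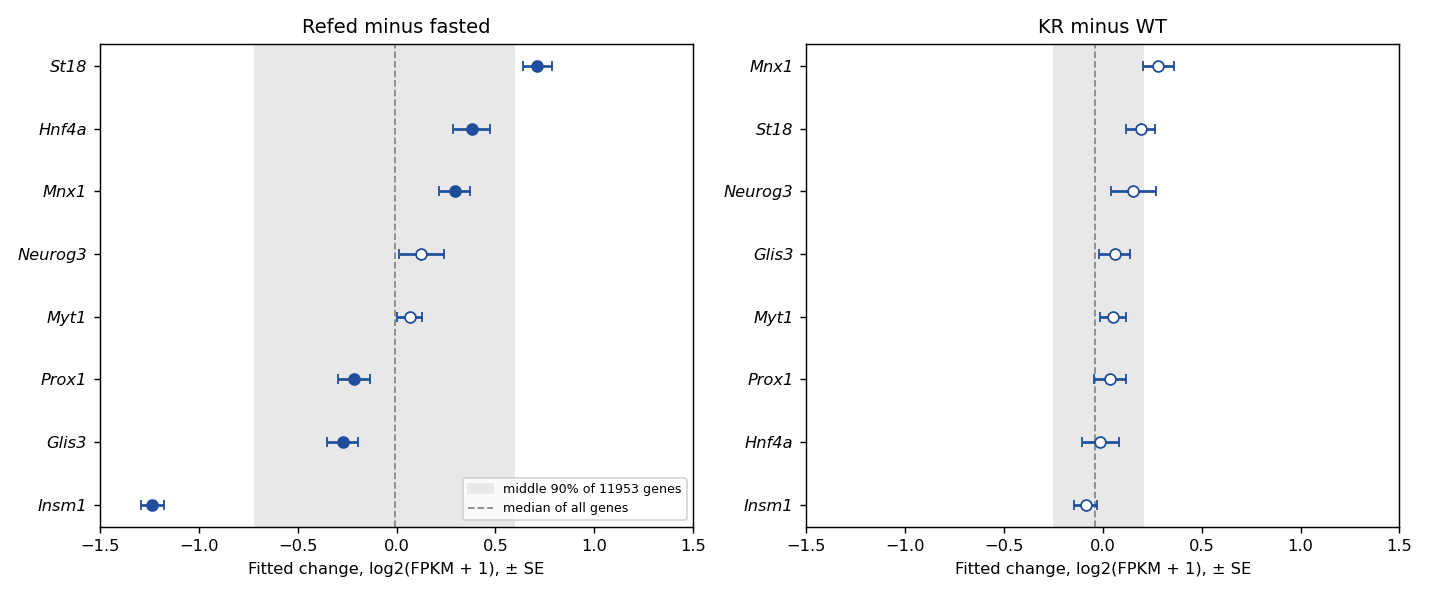
Fitted log2(FPKM + 1) change of each gene (horizontal axis) for refed minus fasted and KR minus WT, with bars of 1 SE over 4 libraries; filled points passed the limma test, the grey band holds the middle 90% of all 11953 tested genes and the dashed line is their median. For feeding, Insm1 at -1.23 and St18 at 0.71 lie outside the band from -0.72 to 0.60, and for genotype Mnx1 at 0.28 lies outside the band from -0.24 to 0.20 without passing the test.

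Hnf4a encodes a nuclear receptor, the hepatocyte nuclear factor 4 alpha, and lies on chromosome 2 at 163372924 to 163398643. WT islets held 7.81 FPKM fasted (bounds 7.27 to 8.34) and 11.8 refed (10.99 to 12.6), KR islets 8.73 fasted (8.17 to 9.30) and 10.4 refed (9.41 to 11.3). The refed libraries were higher in both genotypes, with refed WT the highest. The ratio was 1.51-fold in WT (counting interval 1.37 to 1.66) and 1.19-fold in KR (1.06 to 1.33), and the fitted rise was 0.38 ± 0.09 (limma, adjusted p = 0.00797).

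Hnf4a has 2 start regions, an upstream one known to serve islets and a downstream one known to serve liver. The deposited row spans 25720 bases, against 66103 in GENCODE M21 (build GRCm38), and the RefSeq starts lie 40298 bases apart, so the deposited row leaves out the upstream start and its FPKM cannot tell the isoforms apart. Both windows, from 250 bases before to 50 after the start (RefSeq, GRCm38.p6, plus strand), are shown because they are the sequences between which the deposited value cannot choose. The upstream window is chr2:163506607-163506906 and the downstream window chr2:163546905-163547204.
Hnf4a upstream start: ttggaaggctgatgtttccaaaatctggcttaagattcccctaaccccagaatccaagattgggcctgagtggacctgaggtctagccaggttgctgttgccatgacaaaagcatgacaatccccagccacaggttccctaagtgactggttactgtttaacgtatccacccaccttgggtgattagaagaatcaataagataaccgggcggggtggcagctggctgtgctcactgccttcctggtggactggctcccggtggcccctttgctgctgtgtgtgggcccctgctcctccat
Hnf4a downstream start: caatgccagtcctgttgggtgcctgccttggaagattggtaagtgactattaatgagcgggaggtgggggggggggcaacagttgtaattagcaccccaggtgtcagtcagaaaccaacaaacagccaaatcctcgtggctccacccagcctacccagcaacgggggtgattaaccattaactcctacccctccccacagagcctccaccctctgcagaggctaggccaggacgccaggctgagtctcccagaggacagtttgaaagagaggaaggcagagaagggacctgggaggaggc
Neither window held a match to the motifs described next, so neither carries capitals.

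RefSeq windows were found for 6 of the 8 genes, 10 windows in all, and none for Insm1 and St18. Searched on both strands, the FoxO motif GTAAACA, present in 3.65% of all windows, was found in a single one of the 10. It stood 2 times in the window of the middle one of 3 Myt1 starts, at chr2:181766779-181767078 on the plus strand, beginning 105 and 8 bases before the start. That window is shown because FoxO1 is the factor that the KR mutation changes, and capitals mark the motif.
Myt1 middle start: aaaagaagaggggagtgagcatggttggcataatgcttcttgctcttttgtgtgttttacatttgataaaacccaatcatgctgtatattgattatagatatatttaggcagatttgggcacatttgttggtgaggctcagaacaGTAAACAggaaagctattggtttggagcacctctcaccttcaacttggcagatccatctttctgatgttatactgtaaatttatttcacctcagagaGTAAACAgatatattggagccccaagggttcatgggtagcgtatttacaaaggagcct
The Myt1 transcript itself was among the steadiest of the 8, as given above, and the deposited FPKM is summed over its starts. The ATF4 motif TGATGNAA (3.97% of all windows) and the MYT motif AAAGTTT (4.74%) were each found 1 time, in the downstream Myt1 window. The E-box CACGTG (7.15%) and the HNF4 motif CAAAGTCCA (0.475%) were found in none of the 10. A match is a description of letters, not a site.

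Setting KR beside WT islets asks which transcripts differ with the FoxO1 allele. None of the 8 genes passed this limma test, while 1.26% of all tested genes did (0.602% higher, 0.661% lower), 72 higher and 79 lower in KR (76 and 51 after rescaling by the median of ratios). At an unadjusted p under 0.05 there were 2 of the 8, Mnx1 and St18, against 16.4% of all tested genes. With limma-voom on the implied fragments 1 of the 8, St18, passed, under a setting that called 6.26% of all tested genes. For 0 of the 8 did both KR libraries lie above, or both below, both WT libraries, against 16.7% of all tested genes. The largest fitted difference was in Mnx1, higher in KR by 0.28 ± 0.08 on the log2 scale (limma, adjusted p = 0.143). Its FPKM in KR was 1.25-fold that in WT in the fasted (counting interval 1.05 to 1.49) and 1.24-fold in the refed pair (0.997 to 1.53). St18 had a fitted difference of 0.19 ± 0.07 (limma, adjusted p = 0.246, ranging from 0.00447 to 0.769 over 8 alternatives), with a ratio of 1.25 in the fasted (1.19 to 1.31) and 1.06 in the refed pair (1.01 to 1.11).

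Neurog3 had an FPKM ratio of KR to WT of 1.36 in the fasted pair (counting interval 1.16 to 1.60) and 0.934 in the refed pair (0.754 to 1.16), with a shared difference of 0.16 ± 0.11 (limma, adjusted p = 0.557), which was 0.26 with limma-voom (adjusted p = 0.327). Hnf4a had ratios of 1.12 (1.02 to 1.23) and 0.880 (0.786 to 0.984) and a shared difference of -0.01 ± 0.09, whose sign turned under rescaling by the median of ratios, to 0.02. Insm1 had ratios of 0.989 (0.965 to 1.01), whose direction turned under the same rescaling, and 0.895 (0.848 to 0.944). The ratios of Myt1 were 1.03 and 1.04, those of Glis3 1.03 and 1.07, and those of Prox1 1.07 and 0.986 (the latter turning above 1 under that rescaling), and the counting interval of each of these 6 held 1. In the fasted pair 4 of the 8 ratios lay outside counting error, against 37.7% of all tested genes, and in the refed pair 3, against 29.5%. For feeding the numbers were 7 in WT, against 71.2%, and 6 in KR, against 64.3%. Counting error compares libraries, not conditions, and these shares are near the background.

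The genotype ratio of the refed pair minus that of the fasted pair has no test, since no replicate is left for it. Its 95% counting interval excluded 0 for 4 of the 8 genes, against 22.7% of all tested genes. In each of these 4 the difference on the log2 scale was negative, that is, KR was lower relative to WT after refeeding than in fasting, where 14% of all tested genes had an interval below 0 and 8.65% one above 0. The values were -0.55 for Neurog3 (interval -0.93 to -0.16), -0.35 for Hnf4a (-0.56 to -0.14), -0.24 for St18 (-0.33 to -0.14) and -0.14 for Insm1 (-0.23 to -0.06). All comparisons here share libraries, so the genotype and feeding ratios of a gene are not independent of each other.

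**Figure D3:**
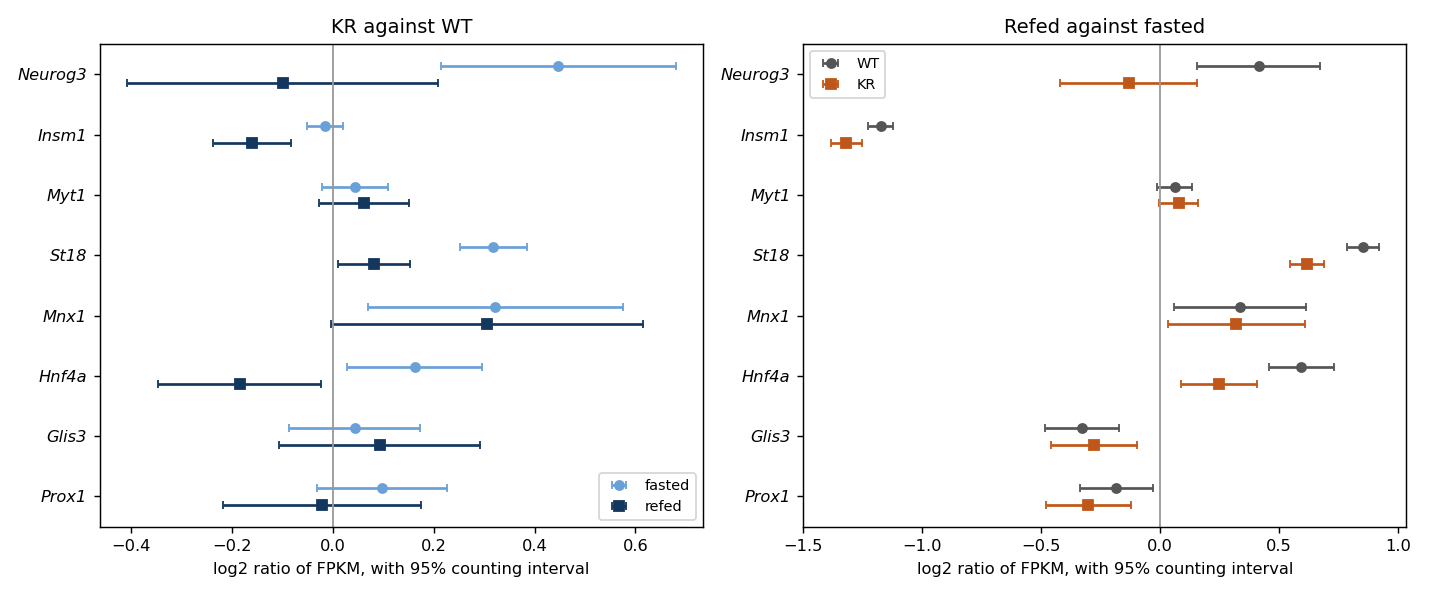
log2 ratio of FPKM between single libraries (horizontal axis) for KR against WT, in the fasted and refed pairs, and for refed against fasted, in WT and KR; bars are 95% counting intervals. The genotype ratios of Neurog3 and Hnf4a lie above 0 in the fasted and below 0 in the refed pair, where the interval of Neurog3 holds 0. The feeding ratios of Insm1 and St18 keep their direction in both genotypes.

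The genes around Neurog3 were read from lists of known upstream and downstream factors. The background for each feeding count of a list, here and below, is that 27.7% of all tested genes rose and 29.2% fell. Of 16 tested endocrine differentiation factors downstream of Neurog3, out of 19 listed, refed islets had 6 higher and 6 lower while 4 did not pass, with a median fitted change of 0.08 against -0.01 over all tested genes. The LIM homeobox gene Isl1 rose by 0.96, the regulatory factor X gene Rfx6 by 0.70, the paired box gene Pax6 by 0.67 and the cell cycle inhibitor gene Cdkn1a by 0.59. The corepressor gene Cbfa2t3 fell by 0.68, the alpha-cell homeobox gene Irx1 by 0.50 and Irx2 by 0.36. None of the 16 passed between genotypes. The FPKM of Pax6 went from 137 to 235 in WT islets and 160 to 236 in KR islets, and that of Rfx6 from 63.8 to 113 and from 72.1 to 108. Pax4, Lmx1a and Neurod2 were listed at 0 in every library.

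Upstream of Neurog3, 10 of 20 listed progenitor and Notch pathway genes were tested. After refeeding 3 fell, 0 rose and 7 did not pass, at a median of -0.15. Of all tested genes 29.2% fell and 27.7% rose, so the share that fell is near the background. Hes1, the Notch effector that represses Neurog3, fell by 0.52, from 6.96 to 5.14 in WT islets and 6.89 to 3.98 in KR islets. The Notch ligand genes Jag1 and Dll1 fell by 0.63 and 0.53. A further ligand gene, Dll4, went from 2.92 to 2.83 in WT islets and 2.33 to 3.10 in KR islets. Its fitted feeding change of 0.13 did not pass. Sox9, the progenitor and duct factor, lay at 0.194 or less, and Ptf1a and Onecut1 were listed at 0. None of the 10 passed between genotypes. Blood endothelial cells also carry Notch ligands, and of 6 tested genes of these cells 4 fell and 1 rose with refeeding. The summed FPKM of the endothelial list went from 32.3 to 21.5 in WT islets and 23.4 to 18.8 in KR islets. The part of these cells in the falls of Hes1, Jag1 and Dll1 was not tested.

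INSM1 and the MYT factors act with corepressor proteins. Of 15 tested genes of 18 listed, 6 fell with refeeding, 2 rose and 7 did not pass, at a median of -0.07. The background was 29.2% lower and 27.7% higher. Kdm1a, the histone demethylase recruited by INSM1, went from 39.8 to 41.3 FPKM in WT islets and 44.8 to 43.3 in KR islets, with a fitted feeding change of 0.003 that did not pass (limma, adjusted p = 0.977). Zmym3 fell by 0.39, the corepressor genes Rcor1 and Rcor2 fell by 0.37 and 0.26, and Hmg20b fell by 0.29. The deacetylase gene Hdac1 rose by 0.40 and the scaffold gene Sin3b by 0.31. Rest, the repressor of neuronal genes, lay at 0.196 or less, and the paralog Insm2 at 0.078 or less. None of the 15 passed between genotypes.

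Among 16 tested neuroendocrine genes, of 18 listed, refed islets had 6 higher and 6 lower while 4 did not pass, at a median of -0.004. The vesicle calcium sensor gene Syt4 fell by 0.90, from 137 to 63.3 in WT islets and 101 to 61.4 in KR islets. The proconvertase inhibitor gene Pcsk1n fell by 0.60, the granule protein gene Vgf by 0.46 and the cadherin gene Celsr3 by 0.44. The tubulin-binding stathmin gene Stmn3 rose by 0.64, the granin gene Scg2 by 0.31, Snap25 by 0.26 and Syp by 0.24. None of the 16 passed between genotypes.

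In the HNF network, the Hnf4a paralog Hnf4g, which went from 2.12 to 3.41 in WT islets and 2.31 to 3.20 in KR islets, rose by 0.42. Of 7 tested network factors, out of 12 listed, 1 rose, 3 fell and 3 did not pass, and among those that fell were the coactivator gene Ncoa1, by 0.44, and Foxa3, by 0.26. Of 9 tested genes known to be bound or controlled by HNF factors, out of 18 listed, 5 rose, 2 fell and 2 did not pass with refeeding. The background was 27.7% higher and 29.2% lower. Hnf4g is in both lists. The glucose transporter gene Slc2a2 rose by 1.03, Tmem27, a beta-cell membrane protein gene, by 0.62 and Anks4b by 0.48, and the potassium channel gene Kcnj11 fell by 0.38. Slc2a2 was also higher in KR, by 0.69 (adjusted p = 0.00528), and was the only one of the 9 to pass between genotypes. Liver targets such as Apob, Apoh, Pck1 and Cyp7a1 lay at 0.19 or less.

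Of the zinc finger relatives of Glis3, Glis2 fell by 0.66 with refeeding, from 9.02 to 4.99 in WT islets and 8.28 to 5.21 in KR islets. The level of Glis3 was 1.07 and 1.20 times that of Glis2 in fasted and 1.54 and 1.58 times in refed WT and KR. Of 5 tested genes of this list, out of 13, 2 fell, 0 rose and 3 did not pass, and the other that fell was the hedgehog receptor gene Ptch1, by 0.35. Zic1 and Zic2 were listed at 0. Of 5 tested genes that GLIS3 controls in beta cells, out of 6 listed and with Neurog3 among them, Ins1 and Slc30a8 rose in KR, by 1.34 and 0.29. With refeeding the cyclin gene Ccnd2 fell by 0.73 and Slc30a8 rose by 0.22. The remaining listed gene, Ins2, has no valid value in fasted KR and was not tested.

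**Figure D4:**
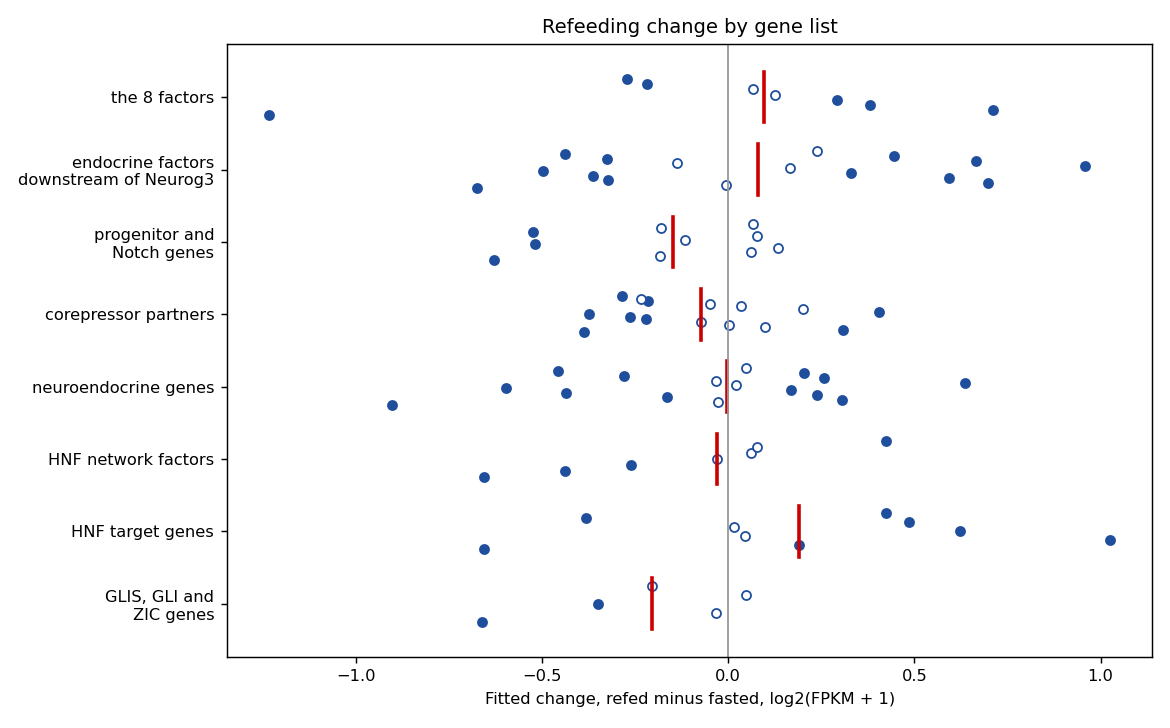
Fitted change with refeeding (horizontal axis, log2(FPKM + 1)) of the tested genes of 8 lists (rows); filled points passed the limma test, open points did not, red bars are medians and vertical scatter within a row has no meaning. The 8 factors spread from -1.23 to 0.71 around a median of 0.10, and the endocrine factors downstream of Neurog3 split into 6 higher and 6 lower.

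A list of genes of immature or dedifferentiated beta cells was read because Neurog3 is known to return in dedifferentiated beta cells. Of 13 listed, 7 were tested. Serpina7, the thyroxine-binding globulin gene, was lower in KR by 0.51 on the log2 scale and 0 were higher. The hormone gene Gast rose by 0.97 with refeeding, from 0.469 to 2.06 in WT islets and 0.773 to 2.24 in KR islets, and Serpina7 rose by 0.70. Aldh1a3 lay at 0.509 or less, Pou5f1 was listed at 0 and Nanog lay at 0.049 or less.

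The libraries carried the defining hormones of beta, alpha, delta and PP cells at high levels, as the tissue label says. Of 9 tested beta-cell markers 6 were higher in KR and 0 lower, while with refeeding 5 rose and 0 fell. Among all tested genes 0.602% were higher and 0.661% lower in KR, and 27.7% rose and 29.2% fell with refeeding. Marker calls were not repeated under the alternative settings, with which the number of all genes called between genotypes ran from 0 to 748. Of 6 tested alpha-cell markers 1 rose and 3 fell with refeeding, and of 5 delta and PP cell markers 3 rose and 0 fell. Glucagon (Gcg), with a fitted feeding change of 0.12, and somatostatin (Sst), with 0.08, did not pass. Prox1 also marks lymphatic endothelium, and the 6 markers of that cell type summed to an FPKM of 3.52 to 6.57, less than Prox1 alone, with Mmrn1 listed at 0 and Lyve1 at 2.47 to 5.35. Hnf4a and Prox1 also mark hepatocytes, whose 7 listed genes summed to 73.8 fasted and 41.0 refed in WT, and to 78.8 and 45.0 in KR. Of 3 tested, 2 fell with refeeding, Tat by 0.87 and Trf by 0.32, and Fgb did not pass. Tat lay at 35.4 to 71.8, Trf at 3.71 to 5.63 and Fgb at 1.03 to 1.57, while the defining gene Alb lay at 0.15 or less. Insm1 and Myt1 also mark neurons. The 9 listed neuron and Schwann cell genes summed to 64.7 fasted and 105 refed in WT, and to 79.3 and 118 in KR, and of 5 tested, refed islets had 2 higher and 1 lower. Tubb3 lay at 22.2 to 46.2, Th at 23.3 to 60.1 and Elavl4 at 9.94 to 12.0, while Elavl3 lay at 0.035 or less. Tubb3 rose by 0.87 and Th by 0.78, and Th was also higher in KR, by 0.55 (limma, adjusted p = 0.00792). Fibroblast genes, of which 5 of 5 tested fell with refeeding, summed to 30.7 fasted and 15.8 refed in WT, and to 31.5 and 18.3 in KR. Duct genes summed to 687 to 873, of which 4 of 6 tested rose with refeeding, Krt7 and Krt18 among them, and Cftr lay at 0.0125 or less. Macrophage genes summed to 286 to 350, with 3 of 7 tested lower after refeeding and Cd74 higher in KR. Acinar genes summed to 60.1 to 77.5, with 2 of 3 tested higher and 1 lower, and Ptf1a at 0. The part of these cell types in the changes of the 8 factors was not tested.

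For the 4 genes whose levels spanned at least 0.5 on the log2 scale, the 3 genes of most similar profile were taken by the Euclidean distance of mean-centred log2(FPKM + 1) values over the 4 libraries, among 8495 named genes whose FPKM averaged at least 5. Nearest to Insm1 were Dcaf12l1 (distance 0.068), the tRNA export receptor gene Xpot (0.079) and the chromatin remodelling gene Mta1 (0.090). Nearest to St18 were Hepacam2 (0.024), the RNA polymerase subunit gene Polr2k (0.025) and the sulfotransferase gene Gal3st1 (0.033). Nearest to Mnx1 were the imprinted gene Peg3 (0.034), Fkbp9 (0.046) and the granin gene Scg2 (0.046), and nearest to Hnf4a were Cwf19l1 (0.020), Aifm2 (0.027) and Tha1 (0.031).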

How the data were processed

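Polyadenylated RNA of pooled islets was sequenced after an Illumina TruSeq preparation, per the labels' protocols. The submitters' processing notes name TopHat2 2.0.4, bcl2fastq 1.8.4 and the build mm9. What the authors deposited is FPKM per gene with bounds and a status, per the file headers. The program and annotation that gave the FPKM are not stated there. Gene starts are written counted from 1, by adding 1 to the deposited start, since the deposited end minus start of Neurog3 and St18 equals their GENCODE span.

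Rows of the same symbol were summed and values without the status OK were treated as missing. A gene's fragments were implied by the squared ratio of its FPKM to its standard error, taken from the upper bound, and 95% counting intervals used them. Of the implied numbers above 0 and under 100, from 73.1% to 73.9% per library lay within 0.05 of a whole number. The other implied numbers were used in the same way. limma 3.58.1 in R 4.3.3 was run with a mean-variance trend, a pseudocount of 1 and Benjamini-Hochberg adjustment at 0.05 over 11953 genes. The code was first checked on values simulated from its own fitted spread, which cannot show that the p-values hold for these libraries. Genes named beside the 8 are list members that passed a test, up to 4 per direction, markers of cell types, genes at 0 and nearest profiles. The 8 genes and the lists were chosen with earlier results of these data known. Some genes of the lists are counted but not reported here by name.
Alternatives were pseudocounts of 0.1 and 0.5, no filter, a minimum mean FPKM of 5, no trend, a robust prior, rescaling by median ratios and limma-voom on the implied fragments.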

Additional observations from a re-analysis of the deposited data

Results flagged for a closer look

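The genotype ratio took opposite directions in the fasted and refed pairs for Neurog3, Hnf4a and Prox1. How many of all tested genes did so was not counted. The ratio of KR to WT in the refed pair minus that in the fasted pair was -0.55 on the log2 scale for Neurog3, -0.35 for Hnf4a and -0.12 for Prox1. For Neurog3 the feeding ratio, too, differed in direction between genotypes, at 0.41 in WT and -0.13 in KR, and the difference between them is the same -0.55. The counting interval of that KR feeding ratio held 0 (-0.42 to 0.16), so its direction is not settled. The interval of the refed genotype ratio of Neurog3 also held 0 (-0.41 to 0.21). None of the differences between ratios was tested, since each group has 1 library. The counting interval of the difference held 0 for Prox1 (-0.35 to 0.12). The refed ratio of Prox1, -0.019 on the log2(FPKM + 1) scale, turned to 0.021 when libraries were rescaled by median ratios, so that both of its pairs then had the same direction. Neurog3 in refed KR rests on 132 implied fragments, the fewest of the 8 genes in any library.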

How the results depend on the processing

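The number of the 8 genes that passed was 0 between genotypes and 6 between feeding states, and 8 alternatives were tried. With limma-voom on the implied fragments 1 passed between genotypes. With no filter on low values 0 passed between feeding states, and 0 of all genes passed in limma for either comparison, beside 1918 for genotype and 6207 for feeding at an unadjusted p under 0.05. The count of all genes called between genotypes, 151, became 252 at a mean FPKM of at least 5, 5 in limma without trend, 228 with a robust prior and 748 with limma-voom. The fitted genotype difference of Hnf4a turned from -0.01 to 0.017 when libraries were rescaled by median ratios and to 0.032 with limma-voom. All 64 fitted feeding changes of the 8 genes under these alternatives kept their direction, and 8 lost the call, 6 of them with no filter and 2 of Prox1. No paired analysis was possible because each group has only 1 library. Depth limits Neurog3 and Mnx1 most, with 132 and 146 implied fragments in refed KR.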

Other observations

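A pair of genes from the marker lists was present in islets and fell with refeeding. Tat, the tyrosine aminotransferase gene known from liver, went from 67.0 to 35.4 FPKM in WT and from 71.8 to 39.6 in KR, and fell by 0.87 on the log2 scale (limma, adjusted p = 1.47e-05), while albumin (Alb) lay at 0.15 or less. Bhlha15, the secretory cell factor also called Mist1, went from 21.8 to 9.79 FPKM in WT and from 24.4 to 11.1 in KR, and fell by 1.07 (limma, adjusted p = 1.1e-05), while the acinar factor Ptf1a was listed at 0. Neither passed between genotypes.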
